A study of Mus musculus with 8 samples.

Results

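The set described here is 37 mouse genes of DNA replication and S phase, taken from the tables by gene symbol. The neurosphere FPKM table held 34 of them among 11496 genes, with Rfc4, E2f2 and Gins2 not among its rows. The cortex FPKM table held 31 among 12056, with Cdc6, Gins2, E2f2, Mcm10, Orc1 and Rfc4 not among its rows. The authors' deposited DESeq2 tables listed all 37 in both tissues. FPKM divides the fragments of a gene by its transcript length and by the library's mapped fragments, so levels can be compared between genes of 1 table.

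RNA was sequenced from 8 libraries of C57BL/6 mice, wild-type (WT) or with loss of Hdac3 (KO), the catalytic deacetylase of the NCoR and SMRT corepressor complexes. WT 5, WT 6, KO 7 and KO 8 were neurospheres (neural stem and progenitor cells cultured as floating spheres), kept to day 4 after isolation from the cerebrum of embryonic day E16.5. WT 1, WT 2, KO 1 and KO 2 were the dorsal cerebral cortex of newborn mice at postnatal day 0. Each tissue had 2 WT and 2 conditional KO brains by the series' design text, and no agent was given to either genotype by the labels. Cortex KO titles name Emx1, and the authors' cortex table names its Cre driver, which acts in dorsal telencephalic progenitors and their progeny, so ventrally born interneurons, microglia and vessel cells may still carry Hdac3. Neither the neurosphere driver nor the floxed status of WT animals is given in the sources used here.

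Before S phase, the origin recognition complex with Cdc6 and Cdt1 loads the Mcm2 to Mcm7 helicase onto origins, and Cdc45, the GINS complex and Mcm10 then switch the helicase on. DNA polymerases copy both strands behind it, held by the Pcna clamp that the Rfc complex loads. E2F factors, released from Rb proteins by cyclin-dependent kinases, drive many of these genes at the G1 to S boundary. In the embryonic forebrain such genes are known to be high in the dividing radial glia and intermediate progenitors and low in neurons.

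Hdac3 itself was 34.4 and 28.7 FPKM in the WT and 18 and 20.5 in the KO neurospheres, a log2 fold change of −0.68 (adjusted p = 0.104, limma-trend with Benjamini-Hochberg adjustment, BH). In cortex it was 48.1 and 46.1 FPKM in WT and 26.8 and 27.1 in KO, a log2 fold change of −0.78 (adjusted p = 0.000319, limma-trend, BH). Both KO libraries lay below both WT libraries in each tissue. By the width of the Cufflinks intervals, a member rested on 7.83 to 1585 fragments (median 206) in neurospheres and on 60.1 to 2724 (median 382) in cortex. The standard error of a member's log2 fold change had a median of 0.23 in neurospheres and 0.10 in cortex, so a change of a given size was harder to detect in neurospheres. Fold changes are on the log2(FPKM + 1) scale, which understates changes of low genes. The tables were normalized separately, so levels are set side by side across tissues only as a description.

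Promoter letters did not enter the choice of members, and E2F words were found in some of their promoters. Of the 31 members with an entry in the RefSeq promoter table (build GRCm38.p6, 250 bases before to 50 after each start), 13 or 41.9% held at least 1 of the E2F words TTTCCCGC, TTTCGCGC, TTTGCCGC and TTTGGCGC on either strand. The share among all 27025 genes listed there was 2.6% (704 genes), and this difference was not tested. The CCAAT box was found in 18 members (58.1%, against 41.1% of all genes), and the CHR words TTTGAA or TTCGAA in 6 (19.4%, against 21.7%). In Mcm7 a CCAAT box starts on the last base of the E2F word shown, and a match is a description of the letters only. Shown are 30-base windows of the 6 members, among those called or with the largest changes, whose E2F words lie nearest the start. Capitals mark the E2F words, read on the gene's strand, some as the reverse complement.
Mcm7, chr5:138171849-138171878, minus strand: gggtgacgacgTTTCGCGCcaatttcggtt
Mcm3, chr1:20820265-20820294, minus strand: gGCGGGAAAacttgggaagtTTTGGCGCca
Lig1, chr7:13278841-13278870, plus strand: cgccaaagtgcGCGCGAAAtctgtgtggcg
Cdt1, chr8:122568035-122568064, plus strand: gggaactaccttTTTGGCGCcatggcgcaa
Pold1, chr7:44548766-44548795, minus strand: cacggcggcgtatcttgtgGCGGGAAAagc
Pola1, chrX:93632275-93632304, minus strand: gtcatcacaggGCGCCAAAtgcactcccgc
The Mcm3 window holds 2 words, starting at positions 20 and 39 counted from 1 at the start site. In Mcm7, Lig1, Cdt1 and Pold1 the word starts at 17, 27, 33 and 40, and in Pola1 at −138, before the start. Over the 13 genes there were 19 matches, 11 before and 8 after the start.

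In neurospheres all 33 tested replication genes had a lower fitted level in KO than in WT (29 after median-ratio rescaling and 27 after quantile normalization), but none passed the test alone. Of all genes 68.1% were below 0 (50.4% and 47.6% after these rescalings). The KO mean was 0.314 to 1.28 times the WT mean, with a median of 0.688. The 33 log2 fold changes ran from −1.16 for Mcm10 to −0.05 for Gins1, with a median of −0.45. Over all 11408 genes tested the median was −0.15, and relative to it 29 members lay below and 4 above (Cdt1, Mcm7, Gins1 and Pola1). By limma-trend with BH over all genes and an adjusted p threshold of 0.05, 0 members were called, where 0.929% of all genes were called lower and 0.219% higher. At an unadjusted p under 0.05, 9 of 33 members were lower and 0 higher, where 16.3% of all genes were lower and 3.77% higher. With the spread estimated over all 8 libraries, 7 were called lower (Mcm2, Mcm3, Mcm5, Rpa2, Rrm1, Rrm2 and Uhrf1), where 12.2% of all genes were. That fit pools in the smaller spread of cortex (median difference within the WT pair 0.092, against 0.224 in neurospheres), so it understates the neurosphere error. It held 30 members, and Mcm10 was not among them. Without KO 7, 2 members were called lower, against 3.48% of all genes, and without KO 8, 3 were, against 5.39%. With 1 library left out, the log2 fold change moved by over 1.5 times or turned sign in 24 of the 33 members, the others being Lig1, Mcm10, Mcm2, Mcm3, Mcm5, Pold1, Rpa2, Rrm1 and Tk1. In 21 of 34 members, the untested Orc1 among them, both KO libraries lay below both WT libraries, and in 0 members above. The shares were 38.3% and 14.6% over all genes tested, which leave out rows such as Orc1. Its WT values had to reach 0.999 FPKM and its mean was under 1 FPKM, so its KO values had to be low. Over the 34 members, WT 5 had the highest value in 26 and KO 7 the lowest in 26. The share over all genes was not counted. The all-gene median of −0.15 moved to −0.08 without WT 5 and to −0.22 without WT 6. The members' median of −0.45 moved to −0.25 without WT 5 and to −0.50 without WT 6. Leaving out WT 5 thus moved the members further than all genes. In these bulk libraries fewer dividing cells and less RNA per cell cannot be told apart.

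**Figure D1:**
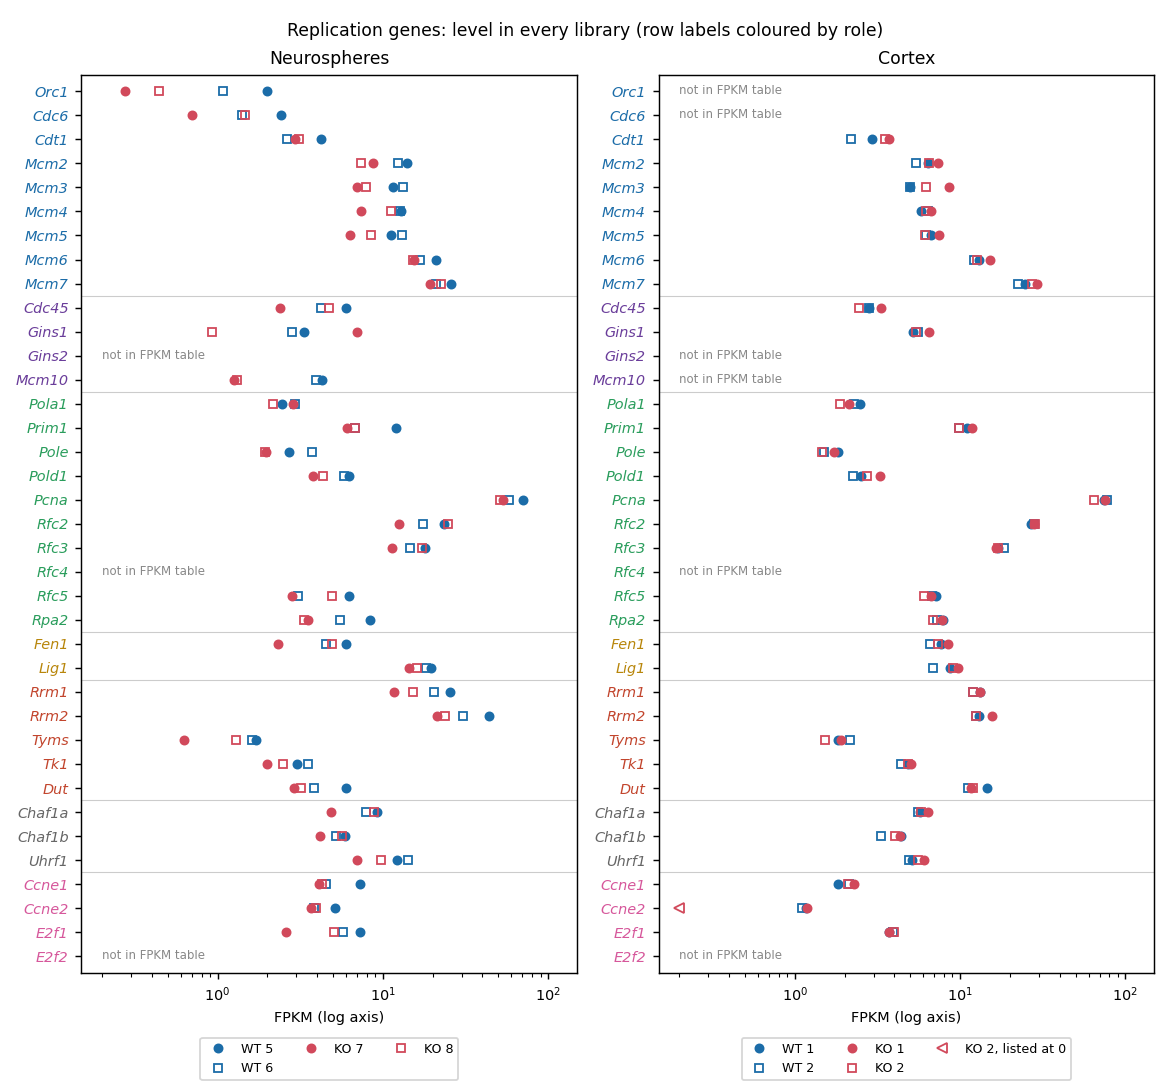
FPKM of each of the 37 members (rows, label colours by role) in the 4 neurosphere libraries (left) and the 4 cortex libraries (right) on a log axis, 1 point per library. In neurospheres the KO points of most rows lie left of the WT points, with WT 5 highest in 26 of 34 rows, and in cortex the points of a row lie close together with KO 1 highest in 20 of 31.

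Of the tested licensing factors in neurospheres, Mcm2, Mcm3 and Mcm5 had the largest log2 fold changes. Mcm2, which with the other subunits forms the ring that unwinds DNA, was 13.9 and 12.3 FPKM in WT and 8.74 and 7.42 in KO. Mcm3 was 11.5 and 13.2 in WT and 6.99 and 7.9 in KO. Mcm5 was 11.2 and 13.1 in WT and 6.31 and 8.5 in KO. For these 3 subunits both KO libraries were below both WT libraries. Their log2 fold changes were −0.64 (SE 0.18, adjusted p = 0.139), −0.66 (SE 0.18, adjusted p = 0.131) and −0.65 (SE 0.20, adjusted p = 0.16) by limma-trend with BH. Mcm4 had −0.45 and Mcm6 −0.28, also without overlap of the groups. Mcm7, the highest of the ring in FPKM, was 25.7 and 21.1 in WT and 19.4 and 22.6 in KO, with overlapping groups and a log2 fold change of −0.15 that turned to 0.01 after rescaling by median ratios. The WT means within the ring ran from 12.2 FPKM for Mcm5 to 23.4 for Mcm7, and the KO means from 7.41 to 21 for the same genes.

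The loaders of the helicase were low in FPKM. Orc1, the largest subunit of the origin recognition complex, was 1.98 and 1.08 FPKM in WT and 0.277 and 0.44 in KO. Its KO mean was 0.235 of the WT mean, the smallest ratio of the 34 members, but its mean over the 4 libraries was under 1 FPKM and it was not tested. No WT value of that table was below 0.999 FPKM, a limit not set on KO, which favours small ratios among low genes such as Orc1. The KO values rested on 11.9 fragments in KO 7 and 21 in KO 8. Cdc6, an ATPase that joins it at origins, was 2.44 and 1.41 in WT and 0.6998 and 1.46 in KO, so that KO 7 was low and KO 8 lay within the WT range. Cdt1, which brings the helicase and is destroyed as S phase begins, was 4.25 and 2.62 in WT and 2.93 and 3.1 in KO, with overlapping groups and a log2 fold change of −0.12.

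Mcm10, which joins the helicase to the polymerases as forks start, had the largest fitted change of the members. It was 4.26 and 3.96 FPKM in WT (4.11 ± 0.209, SD, n = 2) and 1.26 and 1.32 in KO (1.29 ± 0.0439, SD, n = 2). The Cufflinks interval was 3.66 to 4.85 in WT 5, 0.929 to 1.59 in KO 7 and 1.004 to 1.64 in KO 8, so the KO libraries lay apart from it beyond counting error. The log2 fold change was −1.16 (SE 0.22, adjusted p = 0.0701) by limma-trend with BH, with a 95% interval of −1.68 to −0.63. It passed without KO 7 (adjusted p = 0.0241) and without KO 8 (adjusted p = 0.0155), where the lone KO library is assumed to vary like WT. The log2 fold change of Mcm10 was −1.12 without WT 5 and −1.20 without WT 6. Mcm10 did not pass in these fits, where no gene of the neurosphere table was called. Cdc45, a part of the active helicase, was 5.95 and 4.2 in WT and 2.39 and 4.7 in KO, with KO 8 inside the WT range. Gins1, a GINS subunit, was 3.34 and 2.82 in WT and 6.94 and 0.932 in KO. The 2 KO libraries of Gins1 lay on either side of WT, and its SE of 0.58 was the largest of the members. The log2 fold change of Gins1 was −1.07 without KO 7 and 0.96 without KO 8, so its direction depends on the KO library kept. Its KO 8 value rested on 7.83 fragments.

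Of the polymerase, clamp and single-strand binding genes, Rpa2 had the largest change in neurospheres. Rpa2, the middle subunit of the protein that coats unwound DNA, was 8.38 and 5.49 FPKM in WT and 3.54 and 3.32 in KO. Both KO libraries were below both WT libraries, though the WT pair was itself far apart, and the log2 fold change was −0.82 (SE 0.24, adjusted p = 0.149) by limma-trend with BH. Pcna, the sliding clamp, had the highest level of all members, 70.9 and 57.8 in WT and 53.5 and 51.4 in KO. Its KO libraries were lower without overlap, with a log2 fold change of −0.28 (SE 0.16). For Pcna this was −0.14 without WT 5, −0.43 without WT 6 and −0.12 after median-ratio rescaling. Pold1, the catalytic subunit of the lagging-strand polymerase, was 6.24 and 5.83 in WT and 3.76 and 4.34 in KO, and Pole, that of the leading-strand polymerase, was 2.69 and 3.74 and 1.96 and 1.95. Both were lower in KO without overlap, at −0.48 and −0.50 on the log2 scale. Pola1, the catalytic subunit of the polymerase that extends primers, was 2.47 and 2.96 in WT and 2.85 and 2.16 in KO, with overlapping groups. Prim1, the primase subunit, had −0.44, and its KO libraries (6.07 and 6.75) lay just under WT 6 (6.83) and far under WT 5 (11.9). The clamp loader subunits Rfc2, Rfc3 and Rfc5 had log2 fold changes of −0.18, −0.19 and −0.18, and in all 3 KO 7 was the lowest library and KO 8 within or above the WT range.

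The 5 genes of nucleotide supply formed the role group with the lowest median in neurospheres, −0.52, and in all 5 both KO libraries were below both WT libraries, where 38.3% of all genes showed this. Rrm1, the large subunit of ribonucleotide reductase, was 25.4 and 20.5 FPKM in WT and 11.7 and 15.3 in KO. Rrm2, the small subunit whose level limits the enzyme in S phase, was 44.1 and 30.4 in WT and 21.2 and 23.6 in KO. The log2 fold changes were −0.73 (SE 0.19, adjusted p = 0.124) and −0.69 (SE 0.20, adjusted p = 0.142) by limma-trend with BH. Tyms, which makes thymidylate, was 1.71 and 1.62 in WT and 0.629 and 1.3 in KO. Tk1, the salvage thymidine kinase, and Dut, which breaks down dUTP, had log2 fold changes of −0.41 and −0.52. Rrm1 passed without KO 8 (adjusted p = 0.0424), had an adjusted p of 0.321 without KO 7, and the other 4 genes were not called with any single library left out.

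Lig1, which seals Okazaki fragments, was 19.6 and 18.2 FPKM in WT and 14.4 and 16 in the KO neurospheres, lower without overlap. Fen1, the flap nuclease that trims them, was 5.99 and 4.51 in WT and 2.32 and 4.91 in KO, with KO 8 inside the WT range. Uhrf1, which brings the maintenance methyltransferase to new DNA, was 12.1 and 14.3 in WT and 7.002 and 9.73 in KO. Its log2 fold change was −0.61 (SE 0.21, adjusted p = 0.183) by limma-trend with BH, without overlap of the groups. The histone chaperone subunits Chaf1a and Chaf1b overlapped between genotypes and had log2 fold changes of −0.33 and −0.16.

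E2f1, an activator of the replication genes, was 7.24 and 5.77 FPKM in WT and 2.59 and 5.06 in the KO neurospheres. KO 7 was far below both WT libraries and KO 8 just below WT 6, and the log2 fold change was −0.68 (SE 0.29, adjusted p = 0.251) by limma-trend with BH. Without KO 8 E2f1 had −1.06 and passed (adjusted p = 0.0321), and without KO 7 it had −0.30 (adjusted p = 0.717). Ccne1 and Ccne2 encode the E cyclins that start S phase with Cdk2. Ccne1 was 7.24 and 4.53 in WT and 4.11 and 4.3 in KO, lower without overlap and with a log2 fold change of −0.37. For Ccne1 the value was −0.09 without WT 5 and −0.66 without WT 6. Ccne2 was 5.15 and 3.85 in WT and 3.7 and 3.96 in KO, with overlapping groups.

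**Figure D2:**
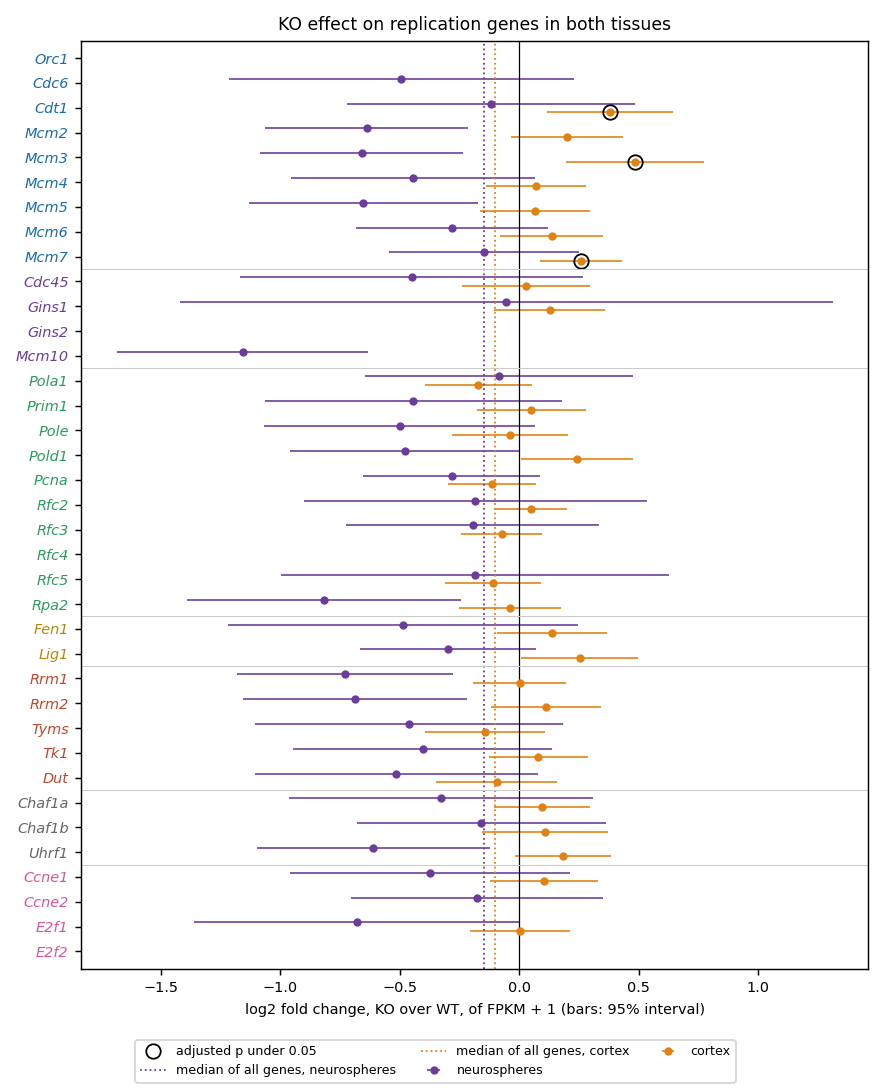
Log2 fold change of KO over WT (log2(FPKM + 1) scale) for each tested member in neurospheres and cortex, with 95% intervals from limma-trend; dotted lines are the medians over all genes (−0.15 and −0.10) and circles mark adjusted p under 0.05. The neurosphere points all lie below 0 (29 of 33 after median-ratio rescaling) and their intervals are wider, while 22 of 30 cortex points lie above 0 (26 after that rescaling) and Mcm3, Mcm7 and Cdt1 are circled.

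In the newborn cortex the KO means of the tested replication genes were 0.841 to 1.5 times the WT means, and the 3 that passed the test were licensing genes with higher levels in KO. The log2 fold changes of the 30 tested members ran from −0.17 for Pola1 to 0.48 for Mcm3, with 22 above 0 and 8 below, and a median of 0.07, where 29.9% of all genes were above 0. Over all 11988 genes tested the median was −0.10, and relative to it 26 members lay above and 4 below (Pola1, Pcna, Rfc5 and Tyms). By limma-trend with BH, 3 members were called higher and 0 lower, where 4.8% of all genes were called higher and 17.7% lower. At an unadjusted p under 0.05, 5 of 30 members were higher and 0 lower, where 8.22% of all genes were higher and 30.8% lower. In 9 of 31 members both KO libraries lay above both WT libraries and in 2 below, against 15.5% and 50.2% of all genes. KO 1 had the highest value in 20 of 31 members and WT 2 the lowest in 14, and the share over all genes was not counted. The all-gene median was −0.12 without KO 1 and −0.08 without KO 2. After rescaling by median ratios 6 members were called higher, with Lig1, Pold1 and Uhrf1 added, where 9.56% of all genes were. With 1 library left out, 28 of the 30 log2 fold changes moved by over 1.5 times or turned sign, all but those of Mcm7 and Uhrf1.

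Mcm3 rose in the KO cortex. It was 4.97 and 4.97 FPKM in WT and 8.61 and 6.26 in KO, with KO 1 well above KO 2 and no overlap of the genotypes. The log2 fold change was 0.48 (SE 0.13, adjusted p = 0.0272) by limma-trend with BH, and the KO mean was 1.5 times the WT mean. Mcm7 rose from 24.7 and 22.5 in WT to 29.4 and 27.4 in KO, without overlap, with 0.26 (SE 0.08, adjusted p = 0.0395). Cdt1 rose from 2.95 and 2.2 to 3.73 and 3.53, without overlap, with 0.38 (SE 0.12, adjusted p = 0.0459). Each of these calls was lost when single libraries were left out. Mcm3 had an adjusted p of 0.0724 without WT 1, 0.0718 without WT 2 and 0.14 without KO 1. Mcm7 had 0.123 without WT 2, 0.202 without KO 1 and 0.11 without KO 2. Cdt1 had 0.201 without WT 2, 0.159 without KO 1 and 0.135 without KO 2. With the spread estimated over all 8 libraries, which pools in the larger spread of neurospheres, 0 members were called in cortex. In that fit 0.00913% of all genes were called higher and 0.0457% lower, so the lack of calls is not particular to the members.

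The other ring subunits did not pass in cortex. Mcm2 was 6.38 and 5.39 FPKM in WT and 7.34 and 6.48 in KO, higher without overlap, with a log2 change of 0.20 (SE 0.10, adjusted p = 0.184) by limma-trend with BH. Mcm4, Mcm5 and Mcm6 had 0.07, 0.07 and 0.14, with overlapping groups. The ring's WT levels in cortex ran from 4.97 FPKM for Mcm3 to 23.6 for Mcm7. Of the helicase activators, Cdc45 had 0.03 and Gins1 0.13, both with overlap.

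Lig1 was 8.67 and 6.86 FPKM in the WT cortex and 9.71 and 9.08 in KO, with a log2 change of 0.25 (SE 0.11, adjusted p = 0.118) by limma-trend with BH. WT 1 lay close to the KO pair and WT 2 below it, and without WT 1 Lig1 passed (adjusted p = 0.0334). Pold1 was 2.52 and 2.26 in WT and 3.27 and 2.75 in KO, higher without overlap, with 0.24 (SE 0.10, adjusted p = 0.122) by limma-trend with BH. Uhrf1 was 5.09 and 4.91 in WT and 6.05 and 5.58 in KO, also higher without overlap, with 0.18 (SE 0.09, adjusted p = 0.164) by limma-trend with BH. Pola1 was the member with the lowest fold change, 2.5 and 2.28 in WT and 2.14 and 1.88 in KO, lower without overlap, with −0.17 (SE 0.10, adjusted p = 0.23) by limma-trend with BH.

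Pcna was 74.8 and 77.2 FPKM in the WT cortex and 75.8 and 64.8 in KO, where KO 1 lay between the WT libraries and KO 2 below. Its log2 fold change was −0.12, and −0.0001 after median-ratio rescaling. The authors' deposited DESeq2 table gave Pcna the other sign, 0.23 (SE 0.12, adjusted p = 0.229), so its direction in cortex is not settled. The clamp loader genes Rfc2, Rfc3 and Rfc5 had 0.05, −0.07 and −0.11, and Rfc5 was, with Pola1, a member in which both KO libraries were lower. Rpa2 (−0.04), Prim1 (0.05) and Pole (−0.04) overlapped. All 5 nucleotide supply genes overlapped, between −0.14 for Tyms and 0.11 for Rrm2. Rrm1 was 13.2 and 12 in WT and 13.3 and 11.9 in KO, so the genotypes nearly coincided. Fen1 had 0.14, Chaf1a 0.09 and Chaf1b 0.11.

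No tested G1 to S regulator passed in cortex. E2f1 was 3.7 and 3.95 FPKM in WT and 3.71 and 3.97 in KO, with a log2 fold change of 0.00 and a 95% interval of −0.20 to 0.21. Ccne1 was 1.83 and 2.12 in WT and 2.29 and 2.09 in KO, with overlap and 0.10. Ccne2 was 1.16 and 1.11 in WT and 1.19 in KO 1, and was listed at 0 in KO 2. Its mean was under 1 FPKM and it was not tested. The authors' deposited table gave Ccne2 a mean normalized count of 224 over the cortex libraries, with a log2 change of −0.14 (SE 0.17, adjusted p = 0.715).

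Set side by side, WT levels in FPKM were higher in neurospheres than in cortex for 19 of the 31 members in both tables, with a median ratio of 1.5. That ratio ran from 0.383 for Dut to 3.96 for Ccne2. Among KO libraries 17 of 31 were higher in neurospheres, with a median ratio of 1.07. These ratios cross separately normalized tables and were not tested.

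The KO effect was then compared between tissues within 1 fit of 8 libraries, as the cortex log2 fold change minus that of neurospheres. For 22 of 30 members the fold change was below 0 in neurospheres and above 0 in cortex, and of all genes of both fits below 0 in neurospheres 24.3% were above 0 in cortex. The other 8 members (Pola1, Pole, Pcna, Rfc3, Rfc5, Rpa2, Tyms and Dut) were below 0 in both. Relative to the all-gene medians, Cdt1, Mcm7, Gins1 and Pola1 lay above in neurospheres, and Pole, Rfc3, Rpa2 and Dut lay above in cortex. In 29 of 30 members the cortex value was the higher, Pola1 being the exception, against 55.6% of all genes. In 5 members (Lig1, Mcm2, Mcm3, Pold1 and Uhrf1) both KO libraries lay below both WT libraries in neurospheres and above both in cortex, against 4.06% of all genes. The median difference was 0.48 over the members and 0.05 over all genes. No member passed at an adjusted p of 0.05 by limma-trend with BH, where 1.4% of all genes did, and 10 of 30 members had an unadjusted p under 0.05, as did 17.6% of all genes.

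Mcm3 had the largest difference, 1.14 (SE 0.22, adjusted p = 0.05001 by limma-trend with BH), just over the threshold. In the same test Mcm3 passed with no filter on low values (adjusted p = 0.0494) and after quantile normalization (adjusted p = 0.0494). It did not pass with a pseudocount of 0.1 (adjusted p = 0.0563), after median-ratio rescaling (adjusted p = 0.0539) or with the replicate block (adjusted p = 0.113). With 1 library left out its difference ran from 0.94 to 1.35. The difference was 0.84 (SE 0.20, adjusted p = 0.0845) for Mcm2, 0.80 (SE 0.25, adjusted p = 0.157) for Rrm2, 0.79 (SE 0.23, adjusted p = 0.13) for Uhrf1 and 0.78 (SE 0.25, adjusted p = 0.168) for Rpa2, by limma-trend with BH. It was 0.73 (SE 0.22, adjusted p = 0.143) for Rrm1, 0.72 (SE 0.20, adjusted p = 0.116) for Pold1 and 0.72 (SE 0.23, adjusted p = 0.16) for Mcm5 in the same limma-trend fit. The smallest were those of Rfc5 (0.07) and Pola1 (−0.09), whose 95% intervals were −0.85 to 1.0 and −0.60 to 0.42. Without WT 6, 5 members passed (Mcm2, Mcm3, Prim1, Rpa2 and Rrm2), against 10.7% of all genes. Without KO 8, 4 passed (E2f1, Mcm3, Mcm4 and Uhrf1), against 4.77% of all genes, and without KO 7 the member that passed was Gins1, against 3.23%.

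**Figure D3:**
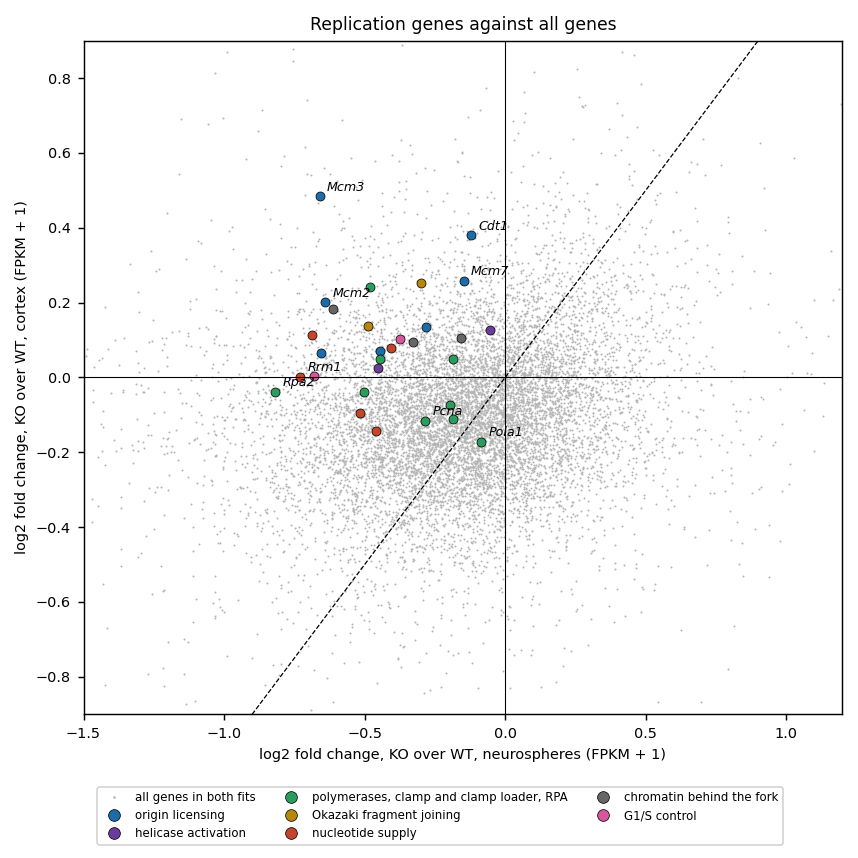
Log2 fold change of KO over WT in neurospheres (x axis) against that in cortex (y axis), on the log2(FPKM + 1) scale, for all 10947 genes tested in both tissues (grey, axes limited to the range shown) and the 30 members (coloured by role). The members lie left of 0 on the x axis, 22 of them at the upper left, and all but Pola1 above the dashed line of equal change.

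The authors' deposited DESeq2 tables include the members not among the FPKM rows. They come from counts and another model, so their sizes are not set against the FPKM fold changes. In neurospheres they called 3 of 37 members lower at an adjusted p under 0.05 and 0 higher, against 2.3% and 3.49% of all genes with an adjusted p. In the authors' deposited table these were Mcm10 with −0.96 (SE 0.27, adjusted p = 0.0102), E2f2 with −0.93 (SE 0.29, adjusted p = 0.0259) and Rrm1 with −0.56 (SE 0.18, adjusted p = 0.0306). E2f2 is a second activator E2F, and its promoter window held an E2F word. Rrm2 had −0.53 (SE 0.18, adjusted p = 0.0572), Orc1 −0.71 (SE 0.29, adjusted p = 0.138) and Rfc4 −0.49 (SE 0.28, adjusted p = 0.377) in the authors' deposited table. Below 0 were 33 of the 37 members, against 50.3% of all genes, with a median of −0.31, and the 4 above 0 were Mcm7, Gins1, Pola1 and Rfc2.

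In cortex the authors' deposited table called 2 members higher and 0 lower, against 6.35% and 5.55% of all genes. Mcm3 had 0.59 (SE 0.14, adjusted p = 0.00074) and Mcm7 0.42 (SE 0.10, adjusted p = 0.000665) in the authors' deposited table. Cdt1 had 0.46 (SE 0.18, adjusted p = 0.077) there and did not pass. Above 0 were 32 of 37 members, against 49.9% of all genes, with a median of 0.17. Mcm10, not among the cortex FPKM rows, had 0.08 (SE 0.21, adjusted p = 0.886) and E2f2 0.27 (SE 0.21, adjusted p = 0.514) in the authors' deposited table. Gins2, Pola1, Rfc5, Tyms and Ccne2 were below 0. Pcna, Pole, Rfc3, Rpa2 and Dut, below 0 in the cortex FPKM fit, were above 0 there. In the authors' deposited gene ontology tables the term DNA replication in neurospheres held 3 of 121 genes, 1 of them the member Mcm10, with an adjusted p of 1.0. No cortex term listed a member. These terms listed 245 genes in neurospheres and 84 in cortex, fewer than the authors called. Rrm1 in neurospheres and Mcm3 and Mcm7 in cortex were called by the authors but not listed, so the terms do not cover all called members.

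**Figure D4:**
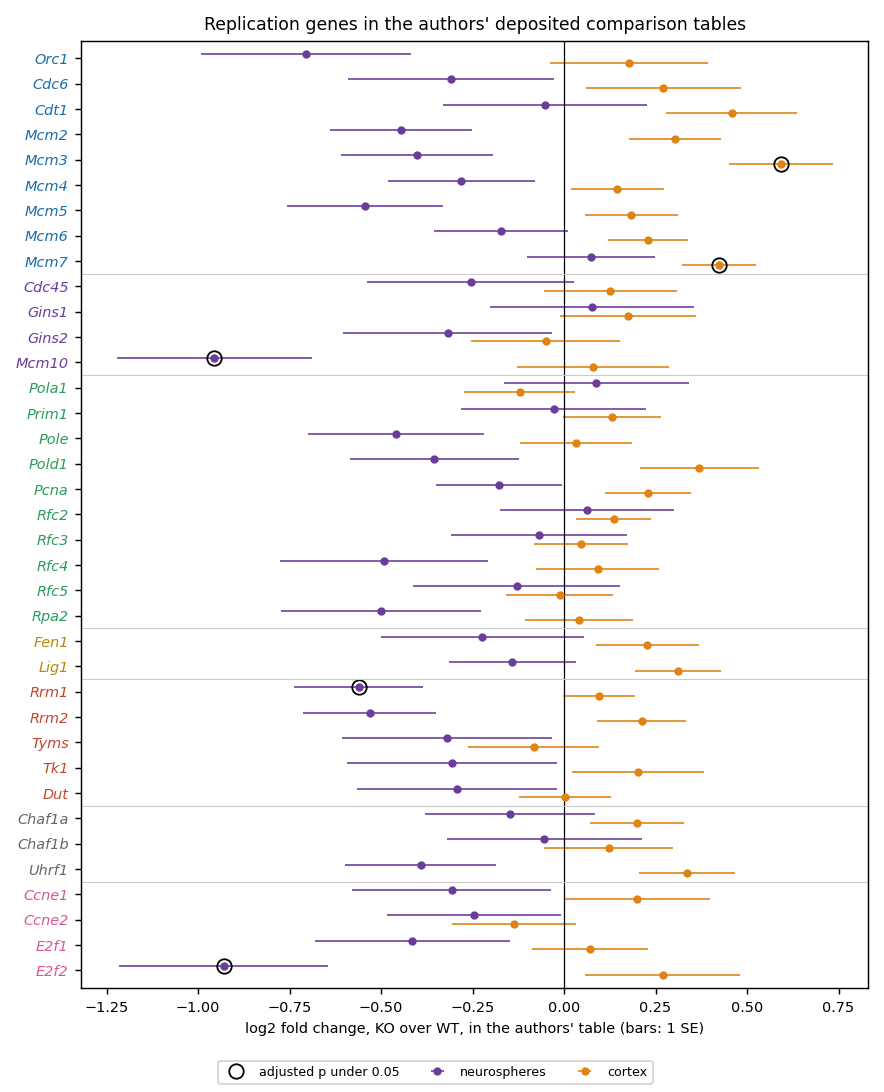
Log2 fold change of KO over WT with 1 SE as given in the authors' deposited DESeq2 tables, for all 37 members in neurospheres and cortex; circles mark the authors' adjusted p under 0.05. Mcm10, E2f2 and Rrm1 are circled on the low side in neurospheres and Mcm3 and Mcm7 on the high side in cortex.

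A further 60 replication genes, from a list that does not overlap the members, was mostly below 0 in neurospheres and divided in cortex. In neurospheres 52 of 60 had a log2 fold change below 0, against 68.1% of all genes, with a median of −0.34. By limma-trend with BH 1 fell and 0 rose, where 0.929% of all genes were called lower. That gene was Dbf4, the activating subunit of the Cdc7 kinase that fires origins, at 13.2 and 12.7 FPKM in WT and 5.24 and 5.91 in KO (−1.09 (SE 0.18, adjusted p = 0.0471)). It lost the call with a pseudocount of 0.1 and under both rescalings. It also lost the call without WT 5 and without WT 6, where every neurosphere call was lost, so that loss is not particular to Dbf4. Cdc7 itself was 12.1 and 17 in WT and 12 and 10.6 in KO and did not pass. The authors' deposited neurosphere table called 2 of 58 of these genes lower (Dbf4 and Ccna2) and 0 higher, against 2.3% and 3.49% of all genes. In cortex 5 of the 55 tested fell and 2 rose by limma-trend with BH, where 17.7% of all genes were called lower and 4.8% higher. These calls were no more frequent than over all genes, and the median was −0.06, against −0.10 over all genes. The authors' deposited cortex table had the other balance. It called 2 of 58 lower and 4 higher (Pole4, Timeless, Nasp, Ssrp1, E2f7 and Tfdp1 in all), against 5.55% and 6.35% of all genes. Pole4, a histone-fold subunit of the leading-strand polymerase, fell from 28.7 and 28.6 FPKM in WT to 15.8 and 15.6 in KO, with −0.83 (SE 0.07, adjusted p = 0.000312) by limma-trend with BH. Nasp, a histone chaperone, fell from 65.6 and 63.2 to 52.7 and 50.6. E2f5, a repressor E2F, fell from 6.99 and 5.92 to 4.72 and 4.08, and Rnaseh2c, a subunit of the enzyme that removes ribonucleotides from DNA, from 18.3 and 15.1 to 12.8 and 12.4. Tfdp1, the dimer partner of the E2Fs, rose from 37.6 and 38 to 47.5 and 44.1. The other limma-trend calls were Timeless, a fork protection protein, which rose, and Dck, a nucleoside kinase, which fell. The Pole4 call held with each library left out. Single libraries ended the others by adjusted p: Nasp had 0.0578 without KO 1 and 0.104 without KO 2, and E2f5 0.0773 without WT 1 and 0.119 without KO 2. Rnaseh2c had 0.0918, 0.0855 and 0.131, and Tfdp1 0.0524, 0.155 and 0.0746, without WT 1, KO 1 and KO 2 in turn.

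Lists of other phases and cell types moved beside the members, and their part in these results was not tested. Of 18 genes of G2 and M phase in neurospheres, both KO libraries were below both WT libraries in all 18, with a median log2 fold change of −0.89, and 2 fell by limma-trend with BH. Over all genes 38.3% lay without overlap in that direction, 0.929% were called lower and the median was −0.15. The 2 that fell were Ccnb1 (−1.12 (SE 0.18, adjusted p = 0.0433)) and Tpx2 (−1.01 (SE 0.15, adjusted p = 0.0401)). The summed level of the 18 genes was 243 to 259 FPKM in WT and 123 to 133 in KO, with Kif20a listed at 0 in KO 7. Of the 10 radial glia and progenitor genes 1 fell, Slc1a3, and the median was −0.60, with a summed level of 1244 to 1591 FPKM in WT and 827 to 1008 in KO. The glial stem cell genes Nes (111 and 109 FPKM in WT, 61.9 and 79.8 in KO) and Sox2 (41.2 and 34.4 and 29.1 and 32.9) had FPKM values above 0 in all 4 libraries. Of 9 interneuron genes 6 rose, where 0.219% of all genes were called higher. Their median was 1.02, and their summed level was 813 to 1008 FPKM in WT and 1348 to 1357 in KO. Of 11 pan-neuronal genes 0 were called, with a median of 0.22. At an unadjusted p under 0.05, 1 was lower and 5 higher, where 16.3% of all genes were lower and 3.77% higher. Of the other lists 0 of 4 intermediate progenitor, 0 of 5 astrocyte and 1 of 7 oligodendrocyte lineage genes were called, the last higher, and the 1 meningeal gene in the table rose. Without WT 5, or without WT 6, no gene of the neurosphere table was called, so each call of these lists rests on both WT libraries. No microglial or vessel marker of the lists was among the neurosphere rows.

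In cortex, where 4.8% of all genes were called higher and 17.7% lower, the G2 and M phase list showed 0 calls among 17 genes by limma-trend with BH. At an unadjusted p under 0.05, 0 were lower and 1 higher, where 30.8% of all genes were lower and 8.22% higher. The list had a median of 0.04 and a summed level of 64.8 to 72.3 FPKM in WT and 63.5 to 82.2 in KO. The radial glia list had 3 genes that rose and 1 that fell (Emx2), with 6 of 10 above 0 and a median of 0.02. Its summed level was 1063 to 1164 FPKM in WT and 1389 to 1477 in KO, most of it from Fabp7 (924 in WT and 1211 in KO on average). Of glial and non-neural lists, 4 of 5 astrocyte, 4 of 7 oligodendrocyte lineage, 4 of 7 microglial and 4 of 5 meningeal genes rose, and 0 of 6 vessel genes, while 1 astrocyte and 1 microglial gene fell. Of 11 pan-neuronal genes 5 rose and 1 fell, of 9 interneuron genes 1 fell, and of 5 intermediate progenitor genes 0 were called. Summed levels were 281 to 299 FPKM in WT and 535 to 599 in KO for astrocytes, 43.6 to 45.7 and 51.8 to 59.2 for microglia, and 49.4 to 51 and 66.5 to 72.9 for meningeal genes. No marker of these lists was at 0 in a cortex library.

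**Figure D5:**
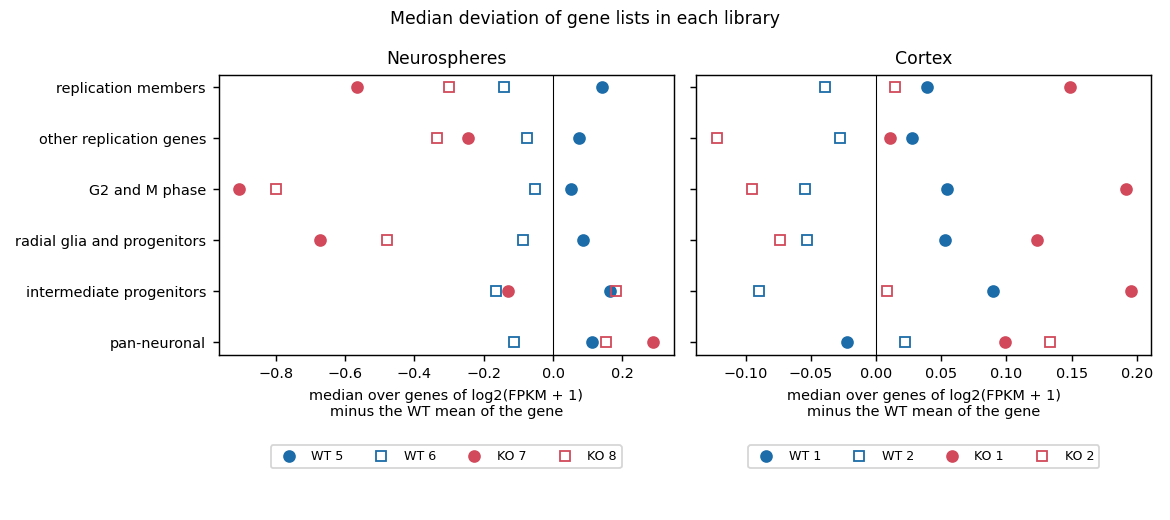
Median over the genes of each list of the log2(FPKM + 1) value minus the gene's WT mean, 1 point per library, in neurospheres (left) and cortex (right); the axes differ in range. In neurospheres the members sit at −0.56 (KO 7), −0.30 (KO 8), 0.14 (WT 5) and −0.14 (WT 6), and the G2 and M phase list lies lower in both KO libraries, while in cortex KO 1 lies highest for the members at 0.15 and KO 2 within the WT range.

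Within each KO pair, the members were lower in KO 7 than in KO 8 in neurospheres and higher in KO 1 than in KO 2 in cortex. The median deviation of the members from the WT mean was −0.56 for KO 7, −0.30 for KO 8, 0.14 for WT 5 and −0.14 for WT 6. In cortex KO 1 had 0.15, KO 2 had 0.01, WT 1 had 0.04 and WT 2 had −0.04. The 60 other replication genes did not show that order of the KO pair in neurospheres, with −0.25 in KO 7 and −0.33 in KO 8.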

How the data were processed

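RNA of 8 libraries in 4 groups of 2 was compared within each tissue. Per the submitters' processing notes, the authors' tools were Trim Galore, STAR, Bowtie, featureCounts, Cufflinks and DESeq2, and the mouse build was mm9; the sources used here give no versions. Deposited FPKM came from 1 Cufflinks run per library, with interval bounds, and a ratio of KO to WT FPKM that was not used as a test. The authors deposited a second pair of tables with a signal column (mean normalized count), log2 fold change, SE, p-value and adjusted p-value from DESeq2, printed only as the authors' values. Their gene ontology tables, which hold p-values and odds ratios of terms, were likewise only copied. The sources used here do not say how strand entered the counting, so genes overlapping on opposite strands are uncertain.

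The tables held 11536 and 12106 rows, and no WT value was below 0.999431 FPKM in neurospheres or 1.00024 in cortex, so both had been restricted on WT. Rows with a date for a symbol (20 and 21) were removed, and of repeated symbols (20 and 29) the row of highest mean was kept. Total counts were not used here. Taking each interval bound as 2 standard deviations from the value implied a median of 346 to 440 fragments per gene in neurospheres and 581 to 711 in cortex, which covers counting error only.

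Genes averaging 1 FPKM or more were fitted per tissue on log2(FPKM + 1) with limma-trend (R 4.3.3, limma 3.58.1, two-sided), and p-values were BH-adjusted across the whole table, with calls at 0.05. The tissue difference was fitted over all 8 libraries for genes kept in both tables. An exact permutation test of 2 against 2 libraries cannot go below p = 0.333, so single values were not tested that way. Sums, motif searches and figures used Python 3.11.15, pandas 2.3.3 and matplotlib 3.10.9. The limma script was tested on simulated data. Promoter sequences came from RefSeq (GRCm38.p6) and were matched by symbol to 31 members, and no mm9 coordinate was printed. Libraries were read as separate brains from the design text, and where they were not, p-values measure only the spread between them.

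The members and lists were chosen with earlier results of these data known. Values per library were given for members past the threshold, the 8 with the largest changes in each tissue, and Pcna, Mcm2 and Ccne1, and for the other members where they complete a role group. Other replication genes past the threshold were named, up to 5 a tissue by smallest adjusted p, with Cdc7, Timeless, Dck and marker genes named after their values were seen. Alternatives were a pseudocount of 0.1, no filter, rescaling by median ratios, quantile normalization, a spread over all 8 libraries, each library left out, and the replicate block in cortex.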

Additional observations from a re-analysis of the deposited data

How the results depend on the processing

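In neurospheres, 0 members were called in the fits reported, 7 with the spread over all 8 libraries and 0 to 3 with 1 library left out. The members' median there was −0.18 after quantile normalization and −0.57 to −0.25 with 1 library left out, and all-gene calls were 131, 65 with a pseudocount of 0.1, 1670 with the spread over 8 libraries and 0 to 671 with 1 library left out. In cortex, 3 members were called, 6 after median-ratio rescaling, 7 after quantile normalization, 0 with the spread over 8 libraries and 0 to 3 with 1 library left out. The cortex median was 0.17 after median-ratio rescaling, 0.19 after quantile normalization and 0.01 to 0.15 with 1 library left out, and all-gene calls were 2699, 6 with the spread over 8 libraries and 820 to 1895 with 1 library left out. Of the cortex all-gene calls 2124 were lower and 575 higher. Median-ratio rescaling made this 929 lower and 1146 higher, and quantile normalization 940 and 986. The neurosphere split of 106 lower and 25 higher became 78 and 52, and 88 and 71. For the tissue difference 0 members passed, against 1.4% of all genes. With no filter 1 passed, against 1.74% of all genes, and after quantile normalization 1, against 2.24%. The members' median difference ran from 0.31 to 0.61 with 1 library left out. The cause of these differences was not tested.

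Signs turned mostly for members near 0. Over all tested members, median-ratio rescaling turned 4 in neurospheres (Cdt1, Mcm7, Gins1 and Pola1) and 4 in cortex (Pole, Rfc3, Rpa2 and Dut). Quantile normalization turned 6 (Cdt1, Gins1, Pola1, Rfc5, Chaf1b and Ccne2) and 5 (Pole, Rfc3, Rfc5, Rpa2 and Dut), and leaving out 1 library turned 1 to 5 and 3 to 5. Values follow for members named by the rule. Rescaling by median ratios gave Mcm7, Cdt1 and Pola1 log2 fold changes of 0.0113, 0.00845 and 0.0328 in neurospheres, and Rpa2 0.0643 in cortex. Quantile normalization gave Cdt1 0.11 and Pola1 0.15 in neurospheres, and Rpa2 0.0772 in cortex. With 1 library left out, values ran for Cdt1 in neurospheres from −0.39 to 0.15, Pola1 in neurospheres from −0.23 to 0.0562, Rpa2 in cortex from −0.12 to 0.0462, E2f1 in cortex from −0.035 to 0.0424, Rrm1 in cortex from −0.0688 to 0.0719, Rrm2 in cortex from −0.0369 to 0.26, Mcm5 in cortex from −0.0554 to 0.19 and for the Pola1 tissue difference from −0.23 to 0.0557. Over single named genes and alternatives 498 values kept direction and side of the threshold, 46 lost and 29 gained a call, and 20 turned sign.

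No pairing of the cortex libraries by replicate number was seen: the correlation over 11988 genes of WT 1 minus WT 2 with KO 1 minus KO 2 was −0.0955. That value, from 4 libraries, cannot exclude a weak pairing. With the replicate block 3 members were called in cortex, 2527 genes in all, and 0 for the tissue difference. Neurosphere groups share no numbers. The low fragment numbers of Orc1 and Gins1 in neurospheres limit what can be said of them. Ccne2 rested on 60.1 to 84.3 fragments in the cortex libraries with a value. Its 0 in cortex KO 2 stands beside a mean normalized count of 224 in the authors' deposited table. Whether that 0 is a failed Cufflinks estimate was not tested.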
